A study of Homo sapiens with 18 samples.

Results

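Autophagy genes, 10 in all, of the autophagy pathway were followed across 6 groups of cultured breast cancer cells: the cargo receptors SQSTM1 and NBR1, the ATG8 genes MAP1LC3B, GABARAP, GABARAPL1 and GABARAPL2, the genes ULK1, WIPI1 and ATG9A that act when an autophagosome is started, and the regulator TFEB. They were taken by name, as 10 of the 60709 genes with counts, and 9 of the 10 had enough counts to be tested. GABARAP did not, with 0 to 16 counts per library. The cells were MDA-MB-231, an established triple-negative breast cancer line, carrying a short hairpin RNA against luciferase (sh-LUC, the control hairpin, given as wild type in the labels) or against IGFBP6 (sh-IGFBP6, the knockdown). IGFBP6 encodes a secreted protein that binds insulin-like growth factors.

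Each line was kept for 24 h in 1 of 3 media: control (0.5% DMSO with 0.5% ethanol), 200 µM of the omega-3 fatty acid docosahexaenoic acid (DHA, dissolved in ethanol, with 0.5% DMSO added), or 2.5 µM erastin (dissolved in DMSO, with 0.5% ethanol added). Erastin blocks cystine uptake and is widely used to induce ferroptosis, a cell death marked by oxidised membrane lipids. All groups therefore carried a hairpin and a vehicle, and each held 3 samples. The labels name neither separate cultures nor clones, so the p-values speak of the spread among samples within groups, possibly a technical one. That spread was estimated over all 6 groups together. Each hairpin was carried by 1 line, so loss of IGFBP6 and other differences between the lines cannot be told apart. The title of the study asks how DHA and erastin act in the control and the knockdown cells. As in any bulk sample, fewer cells of one kind and less RNA per cell cannot be told apart.

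Autophagy encloses cytoplasm in a double membrane, the autophagosome, which fuses with the lysosome. The ULK1 kinase starts the process, ATG9A vesicles supply lipid, and WIPI proteins bind phosphatidylinositol 3-phosphate on the growing membrane. ATG8 proteins are then joined to lipid on that membrane, where receptors such as p62 (the product of SQSTM1) and NBR1 bind them while holding ubiquitinated cargo. p62 and lipid-bound LC3B are themselves degraded in the lysosome, so an RNA level is not a measure of autophagic flux. SQSTM1 is also a known target of the oxidative stress factor NRF2, and its protein binds KEAP1, the inhibitor of NRF2. TFEB switches on lysosome and autophagy genes when mTORC1 is inactive.

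Levels below are CPM, counts scaled by TMM to an effective library size of 1000000. Fold changes and p-values come from edgeR's quasi-likelihood test on counts, with Benjamini-Hochberg adjustment over 15189 genes, and a gene was called at an adjusted p below 0.05. Libraries held 2708143 to 7977429 gene counts, apart from sh-IGFBP6 erastin replicate 3 with 609936. There 54.38% of counts fell on MT-RNR1 and MT-RNR2, the ribosomal RNA genes of mitochondria, and elsewhere 0.03487% to 0.5043% did. Fold changes that rest on it, and list counts, are also given without it. IGFBP6 was at 12.2 to 20.8 CPM in the 9 sh-LUC libraries and at 0.418 to 3.79 CPM in the 9 sh-IGFBP6 libraries, where the highest value was 1 count in the shallow library. The hairpin's target thus differed without overlap. VIM, CD44, AXL and CAV1, expected in this line, summed to 2375 to 4339 CPM, and ESR1, PGR, ERBB2, EPCAM and CDH1 to 75.9 to 116 CPM. Of the markers of other cell types, 4 leukocyte genes summed to 0 to 4.93 CPM and 2 endothelial genes to 0 to 5.64 CPM. The 3 fibroblast genes summed to 15.5 to 41.9 CPM in sh-LUC and 0 to 12.2 CPM in sh-IGFBP6. In the control groups alone their sum was 34.4 to 41.9 CPM in sh-LUC and 4.89 to 7.48 CPM in sh-IGFBP6. The part of the fibroblast genes in the results was not tested.

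In GENCODE release 29 on GRCh38 the genes lie at chr5:179806398-179838078 (SQSTM1, plus strand), chr17:43170481-43211689 (NBR1, plus), chr16:87383995-87404779 (MAP1LC3B, plus) and chr12:10212458-10223130 (GABARAPL1, plus). GABARAP (chr17:7240014-7242770, minus), GABARAPL2 (chr16:75566351-75577881, plus) and WIPI1 (chr17:68420948-68457513, minus) follow. ULK1 (chr12:131894651-131923167, plus), ATG9A (chr2:219219380-219229717, minus) and TFEB (chr6:41683978-41736259, minus) complete the set. All 10 are protein-coding, and counts were taken over whole genes. On the opposite strand, MRNIP shares 20.7% of the exon bases of SQSTM1 and ARSG shares 24.3% of those of WIPI1. Reads of such partners cannot be told apart, because the strand setting of the counting is not given in the sources used here. MRNIP itself had 5 to 388 counts per library and ARSG 1 to 49. On the same strand, ENSG00000284820 shares 38.8% of the exon bases of ATG9A, with 0 to 4 counts. GABARAP shares 30.5% of its exon bases with ENSG00000262526 on the same strand, which had 0 counts. It shares 25.2% with ENSG00000279641 on the opposite strand, which had 0 to 19 counts. How far these overlaps lower the counts of GABARAP was not tested. MAP1LC3B and GABARAPL1 have near-identical copies elsewhere in the genome, so a part of their reads may be lost or shared.

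The sequences just before the transcription starts are shown for the 4 genes with the largest called rises. They are from RefSeq (GRCh38.p14), which had 15 start sites for the 10 genes, and windows of 250 bases before each start were searched on both strands. The 4 motifs were: the antioxidant response element core TGACNNNGC, bound by NRF2, the CLEAR E-box core CACGTG, bound by TFEB, the cAMP response element TGACGTCA, bound by CREB and related ATF factors, and the ATF4 composite element core TGATGNAA. The motifs do not contain one another. They were chosen after the sequences and earlier results had been seen. Over 34943 windows of the same length in RefSeq, 10.9% held the antioxidant core, 6.32% the CLEAR core, 1.63% the cAMP response element and 3.15% the ATF4 core. Among the 15 windows 2 held a match. In GABARAPL1 (chr12:10212836-10212865, plus strand) the cAMP response element lies 30 to 23 bases before the start, shown in capitals. In MAP1LC3B (chr16:87392280-87392309, plus strand) the antioxidant core lies 46 to 38 bases before the start, in capitals. Both matches lie within exons annotated in GENCODE 29. Such exons cover all 250 bases of the MAP1LC3B window and 199 of those of GABARAPL1. In that annotation both genes begin upstream of these windows. For comparison, SQSTM1 is shown by 52 bases outside annotated exons in 1 of its 3 windows (chr5:179820707-179820758, plus strand), and ULK1 by its whole window (chr12:131894372-131894621, plus strand), both without a match. These are descriptions of letters in short windows.
GABARAPL1: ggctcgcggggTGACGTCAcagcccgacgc
MAP1LC3B: gcgagtcaccTGACCAGGCtgcgggctgag
SQSTM1: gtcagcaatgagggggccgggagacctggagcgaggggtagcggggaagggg
ULK1: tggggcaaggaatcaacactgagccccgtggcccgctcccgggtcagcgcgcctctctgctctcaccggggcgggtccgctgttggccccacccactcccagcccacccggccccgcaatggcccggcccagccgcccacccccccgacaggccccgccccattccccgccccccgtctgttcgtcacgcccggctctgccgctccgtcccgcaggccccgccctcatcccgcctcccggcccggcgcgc

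SQSTM1 rose with both agents in both lines. The sh-LUC libraries held 137, 143 and 140.1 CPM in control, at 289, 256 and 288 CPM with DHA, and at 555, 515 and 489 CPM with erastin. The sh-IGFBP6 libraries held 240.1, 239.7 and 255 CPM in control, at 1385, 1398 and 1601 CPM with DHA, and at 729, 784 and 856 CPM with erastin. Ordered by mean, the groups ran sh-IGFBP6 DHA, sh-IGFBP6 erastin, sh-LUC erastin, sh-LUC DHA, sh-IGFBP6 control and sh-LUC control, and no group overlapped its neighbour. Erastin came above DHA in sh-LUC and below it in sh-IGFBP6. The log2 fold change over control was 1.89 ± 0.06 (SE; adjusted p = 1.6e-54) with erastin and 0.99 ± 0.06 (9.5e-28) with DHA in sh-LUC. In sh-IGFBP6 it was 1.66 ± 0.06 (3.6e-49) with erastin, or 1.63 without replicate 3, and 2.58 ± 0.06 (1.4e-70) with DHA. These are 3.71-fold, 1.98-fold, 3.16-fold and 5.97-fold, each over 3 libraries per group. Each pair of comparisons within a line shares its control libraries.

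**Figure D1:**
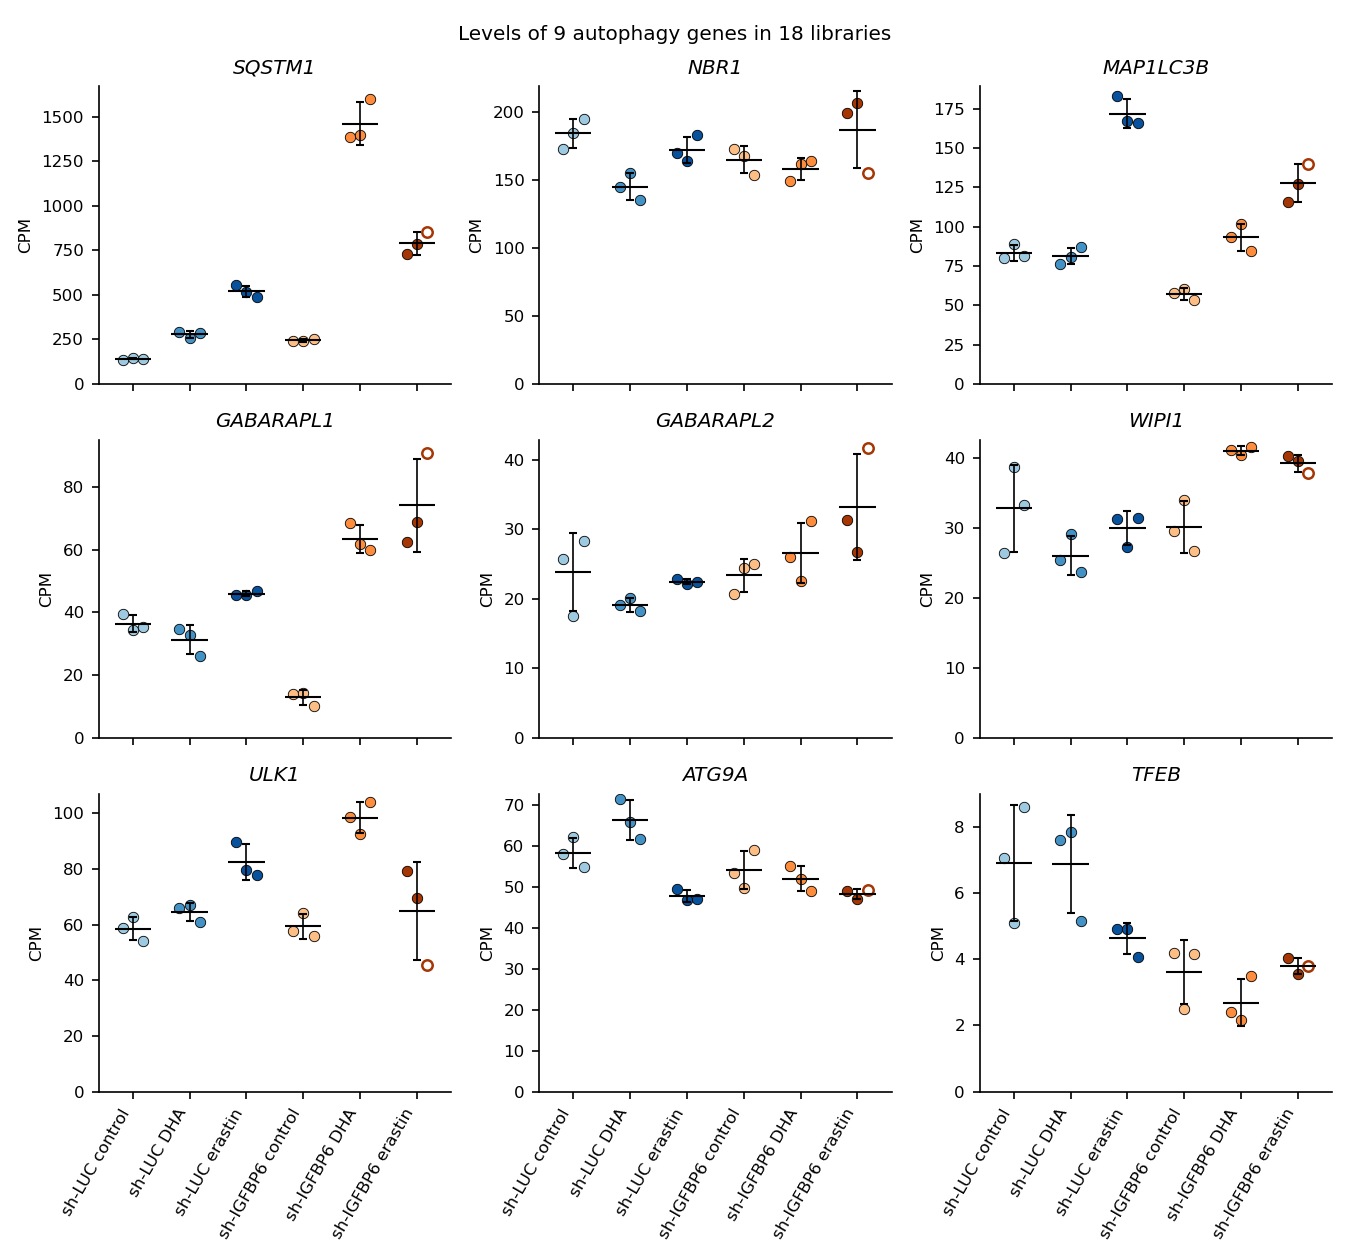
Levels of the 9 tested genes (y axis, CPM, starting at 0, a scale for each gene) in the 6 groups (x axis). Points are libraries, bars the mean and whiskers the SD over 3 libraries, and the open circle is the shallow library, sh-IGFBP6 erastin replicate 3. SQSTM1 separates all 6 groups, from 139.9 CPM in sh-LUC control to 1461 CPM in sh-IGFBP6 DHA, while NBR1 stays between 135 and 207 CPM.

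NBR1, the other receptor, with the same ubiquitin-binding and ATG8-binding design as p62, varied little. Control sh-LUC libraries were at 173, 185 and 195 CPM, followed by 145, 155 and 135 CPM with DHA, and 169.7, 164 and 183 CPM with erastin. The sh-IGFBP6 libraries were at 173, 168 and 154 CPM in control, 149, 162 and 164 CPM with DHA, and 199.5, 207 and 155 CPM with erastin. Every group overlapped its neighbour in the order of means, and the lowest sh-IGFBP6 erastin value was that of the shallow library. NBR1 fell with DHA in sh-LUC (log2 -0.35 ± 0.06, adjusted p = 5.4e-06; -0.30, adjusted p = 0.578, scaled by library size alone). It rose with erastin in sh-IGFBP6 (0.28 ± 0.07, adjusted p = 6.0e-04; 0.30 without replicate 3), but scaled by library size alone the value was -0.07 (adjusted p = 0.874), where the median of all genes was -0.18. With erastin in sh-LUC it was -0.10 ± 0.06 (adjusted p = 0.191) and with DHA in sh-IGFBP6 -0.05 ± 0.07 (0.584), neither of which passed.

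The ratio of the receptors within a library does not depend on how libraries are scaled. SQSTM1 had 0.72 to 0.791 counts per NBR1 count in sh-LUC control, 1.66 to 2.13 with DHA and 2.67 to 3.27 with erastin. In sh-IGFBP6 it had 1.39 to 1.66 in control, 3.66 to 5.51 with erastin and 8.63 to 9.74 with DHA. The ratio was higher in every treated library than in every control library of its line, and in sh-IGFBP6 DHA it exceeded that of all other groups. The upper end of the erastin range in sh-IGFBP6 was the shallow library, and the other 2 libraries were at 3.66 and 3.78. Per kilobase of exon, SQSTM1 averaged 18.3 CPM and NBR1 21.9 CPM in sh-LUC control, and 191 and 18.9 CPM in sh-IGFBP6 DHA.

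**Figure D2:**
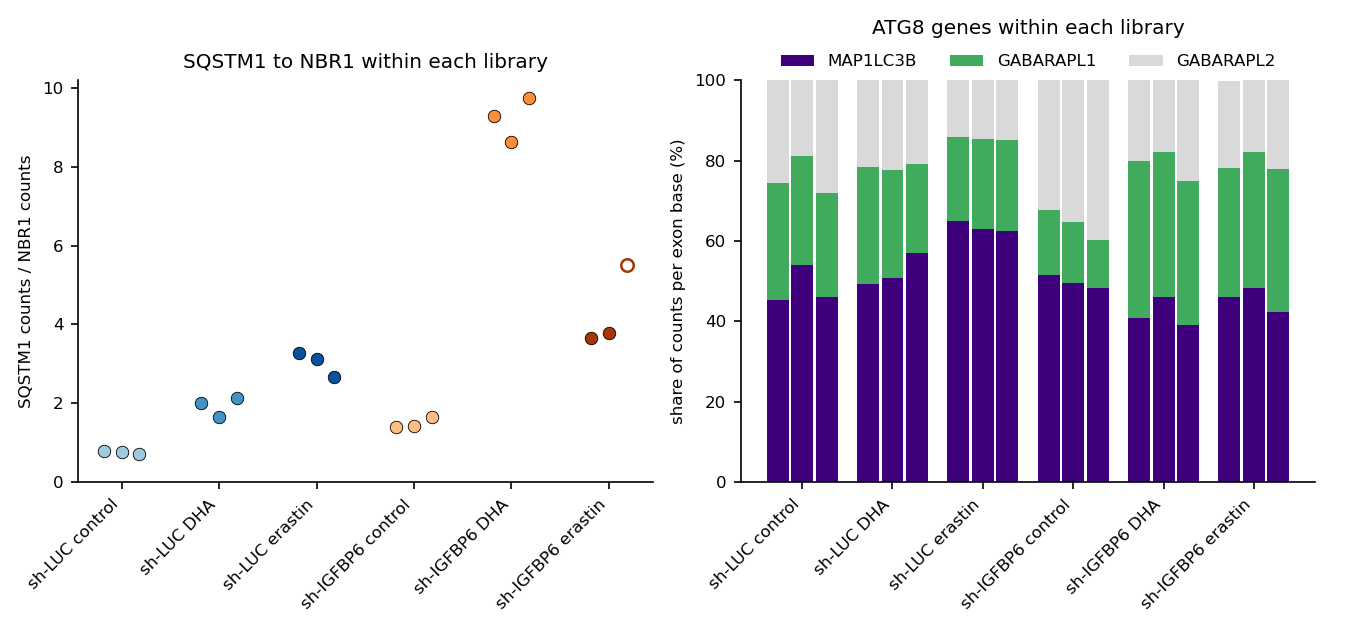
Left, SQSTM1 counts per NBR1 count in each library (y axis, ratio) by group (x axis), with the shallow library as an open circle. Right, share of MAP1LC3B, GABARAPL1 and GABARAPL2 in their sum of counts per exon base (y axis, percent), 1 bar per library: GABARAPL1 takes 11.9% to 16.3% in sh-IGFBP6 control and 35.9% to 39.1% with DHA in that line.

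Among the ATG8 genes, MAP1LC3B encodes LC3B, the usual marker of autophagosomes. It rose with erastin in both lines and with DHA in sh-IGFBP6. Its sh-LUC levels were 79.9, 89.1 and 81.2 CPM in control, 76.4, 80.9 and 87 CPM with DHA, and 183, 167 and 166 CPM with erastin. Its sh-IGFBP6 levels were 57.8, 60.4 and 53.1 CPM in control, 93.2, 102 and 84.6 CPM with DHA, and 116, 127 and 140.1 CPM with erastin. Both erastin groups lay above all others, sh-IGFBP6 control lay below all others, and the remaining 3 groups overlapped. Erastin raised it by a log2 of 1.05 ± 0.07 in sh-LUC (2.06-fold, adjusted p = 9.2e-27) and 1.09 ± 0.08 in sh-IGFBP6 (2.13-fold, 5.5e-23; 1.08 without replicate 3). DHA raised it by 0.72 ± 0.08 in sh-IGFBP6 (1.64-fold, adjusted p = 3.3e-13), and in sh-LUC the value was -0.03 ± 0.08 (adjusted p = 0.853).

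GABARAPL1, an ATG8 gene of the GABARAP branch, was low in untreated knockdown cells and high in treated ones. In sh-IGFBP6 it was at 14.1, 14.4 and 10 CPM in control, 68.4, 61.6 and 59.9 CPM with DHA, and 62.3, 68.9 and 90.9 CPM with erastin, the last from 24 counts in the shallow library. In sh-LUC it was at 39.4, 34.4 and 35.3 CPM in control, 34.8, 32.8 and 26.1 CPM with DHA, and 45.4, 45.4 and 46.8 CPM with erastin. The treated knockdown groups lay above all sh-LUC libraries and the untreated knockdown group below all of them, while DHA and erastin overlapped within sh-IGFBP6. The rise in sh-IGFBP6 was a log2 of 2.36 ± 0.12 with erastin (5.13-fold, adjusted p = 2.7e-35; 2.34 without replicate 3) and 2.29 ± 0.12 with DHA (4.88-fold, 4.7e-35). In sh-LUC it was 0.34 ± 0.10 with erastin (adjusted p = 0.00302) and -0.22 ± 0.11 with DHA (0.175). Scaled by library size alone, the erastin value in sh-LUC was 0.23 (adjusted p = 0.241).

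GABARAPL2, known as GATE-16, showed values of 17.6 to 28.3 CPM in sh-LUC control, 18.2 to 20.1 CPM with DHA and 22.1 to 22.9 CPM with erastin. In sh-IGFBP6 these were 20.7 to 25 CPM in control, 22.6 to 31.2 CPM with DHA and 26.7 to 41.7 CPM with erastin. Ordered by mean, each group overlapped its neighbour except that sh-LUC DHA lay below sh-LUC erastin. Of its 4 responses only that to erastin in sh-IGFBP6 passed (log2 0.33 ± 0.13, adjusted p = 0.0448). That call was lost without any 1 of sh-IGFBP6 control replicates 1, 2 or 3 or erastin replicates 1 or 3, with values of 0.21 to 0.37, and also by DESeq2 (0.33, adjusted p = 0.176), without a filter on low counts (0.33, 0.105) and with library-size scaling (0.18, 0.484). The DHA value in sh-LUC was -0.33 ± 0.13 (adjusted p = 0.0745) and passed without sh-LUC control replicate 2, at -0.50. GABARAP was at 0 to 1.73 CPM in 15 libraries and at 2.39, 2.31 and 1.75 CPM in sh-IGFBP6 DHA, from 8, 16 and 7 counts. The sh-IGFBP6 DHA libraries lay above the others, but the lowest of them barely so: 1.75 CPM against 1.73 CPM in sh-LUC erastin replicate 1, from 12 counts. Fitted without a filter on low counts, GABARAP had a log2 fold change for DHA in sh-IGFBP6 of 1.90 ± 0.56 (adjusted p = 0.01). The sh-IGFBP6 control libraries held 3, 3 and 1 counts of it, so this value rests on few counts and is no support.

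Per exon base, the makeup of the 3 measured ATG8 genes shifted within libraries. GABARAPL1 held 25.9% to 29.1% of their sum in sh-LUC control, 22.2% to 29.2% with DHA and 20.9% to 22.8% with erastin. In sh-IGFBP6 it held 11.9% to 16.3% in control, 35.9% to 39.1% with DHA and 32.1% to 35.7% with erastin. MAP1LC3B was the larger part in every library, reaching 62.4% to 64.9% in sh-LUC erastin. GABARAPL2 exceeded GABARAPL1 in the 3 sh-IGFBP6 control libraries, at 32.2% to 39.8%, and in sh-LUC control replicate 3, where they were at 28.1% and 25.9%. In the other 14 libraries GABARAPL1 exceeded GABARAPL2. The remaining ATG8 genes were near the limit of detection: the 3 libraries of a group together held 2 to 44 counts of MAP1LC3A, 0 to 2 of MAP1LC3C and 10 to 31 of MAP1LC3B2.

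The kinase gene ULK1 was at 58.8, 62.8 and 54.3 CPM in sh-LUC control, 65.9, 67.1 and 60.9 CPM with DHA, and 89.8, 79.7 and 78 CPM with erastin. In sh-IGFBP6 it was at 57.8, 64.4 and 56 CPM in control, 98.8, 92.7 and 104 CPM with DHA, and 79.5, 69.7 and 45.4 CPM with erastin. sh-IGFBP6 DHA lay above every other group, sh-LUC erastin above both controls, and the shallow library below all others. ULK1 rose with erastin in sh-LUC (log2 0.50 ± 0.08, adjusted p = 1.7e-07) and with DHA in sh-IGFBP6 (0.71 ± 0.08, 6.2e-13), and with DHA in sh-LUC it was 0.15 ± 0.09 (0.258). With erastin in sh-IGFBP6 it was called at 0.31 ± 0.09 (adjusted p = 0.0042; 0.33 without replicate 3), but the value was 0.09 (0.735) with library-size scaling, 0.16 (0.347) without replicate 1 and 0.28 (0.0796) by DESeq2.

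WIPI1, a phosphoinositide-binding protein of the early membrane, was at 26.4, 38.8 and 33.3 CPM in sh-LUC control, 25.4, 29.2 and 23.7 CPM with DHA, and 31.3, 27.3 and 31.5 CPM with erastin. In sh-IGFBP6 it was at 29.6, 34.1 and 26.7 CPM in control, 41.2, 40.5 and 41.7 CPM with DHA, and 40.3, 39.7 and 37.9 CPM with erastin. Both treated knockdown groups lay above their control, and the sh-LUC groups overlapped. The rise in sh-IGFBP6 was 0.43 ± 0.11 with DHA (adjusted p = 8.2e-04) and 0.39 ± 0.11 with erastin (0.00484; 0.40 without replicate 3). The erastin call was lost without sh-IGFBP6 control replicate 3 (0.30) or erastin replicate 1 (0.36). With library-size scaling neither passed, at 0.35 with DHA (adjusted p = 0.0959) and 0.24 with erastin (0.314). In sh-LUC it was called lower with DHA (-0.33 ± 0.11, adjusted p = 0.027) and lost the call without sh-LUC control replicate 2 or 3 or DHA replicate 1 or 3, with values of -0.21 to -0.33. It was not called either by DESeq2 (-0.34, adjusted p = 0.0935), without a filter (-0.27, 0.203) or with library-size scaling (-0.28, 0.397). With erastin it was -0.14 ± 0.11 (0.3).

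ATG9A, the lipid scramblase of the vesicles that seed the membrane, ranged from 46.8 to 71.6 CPM over all libraries. It was at 58.1, 62.2 and 55 CPM in sh-LUC control and 49.6, 46.8 and 47.2 CPM with erastin in that line, without overlap. This fall was a log2 of -0.28 ± 0.09 (adjusted p = 0.00429), and it was not called without sh-LUC control replicate 2 (-0.24, 0.0503) or without a filter (-0.24, 0.0597). Its other responses did not pass: 0.19 ± 0.08 for DHA in sh-LUC (adjusted p = 0.121), -0.16 ± 0.10 for erastin (0.206; -0.16 without replicate 3) and -0.05 ± 0.09 for DHA (0.708) in sh-IGFBP6.

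TFEB was the least abundant tested gene per length, at 0.475 to 1.22 CPM per kilobase of exon, and rests on 1 to 68 counts per library. In sh-LUC it was at 7.04, 5.08 and 8.58 CPM in control, 7.59, 7.83 and 5.16 CPM with DHA, and 4.9, 4.9 and 4.07 CPM with erastin. In sh-IGFBP6 all libraries were at 2.17 to 4.19 CPM. Erastin and control did not overlap in sh-LUC, and the treated knockdown groups overlapped their control. The fall with erastin in sh-LUC was -0.60 ± 0.24 (adjusted p = 0.032), and the call ended without sh-LUC control replicate 1 (-0.60, 0.0641) or 3 (-0.37, 0.339), or erastin replicate 3 (-0.52, 0.101), by DESeq2 (-0.59, 0.132) and without a filter (-0.56, 0.109). The other responses were -0.03 ± 0.22 for DHA in sh-LUC (adjusted p = 0.964), 0.14 ± 0.32 for erastin (0.799; 0.14 without replicate 3) and -0.42 ± 0.33 for DHA (0.35) in sh-IGFBP6.

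**Figure D3:**
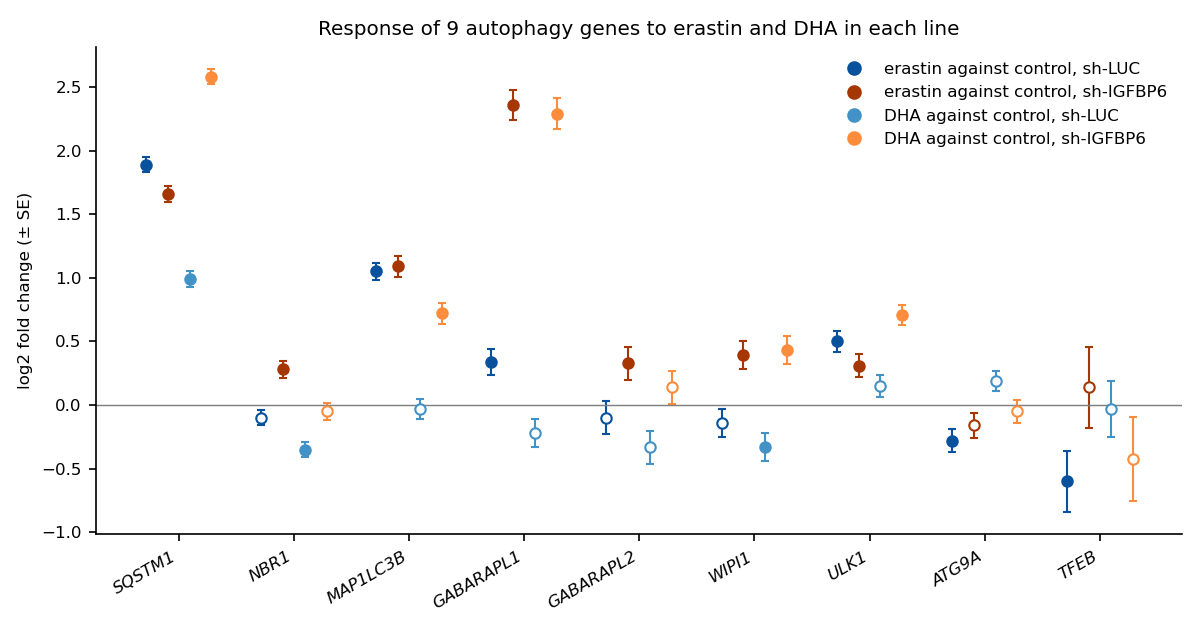
Log2 fold change over control (y axis, ± SE) of the 9 tested genes (x axis) for erastin and DHA in each line, each from 3 against 3 libraries. Filled points were called at an adjusted p below 0.05 and open points were not: SQSTM1 was called in all 4 comparisons, from 0.99 to 2.58, and GABARAPL1 lay at 2.36 and 2.29 in sh-IGFBP6 and at 0.34 and -0.22 in sh-LUC.

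Counted over the 9 tested genes, erastin in sh-LUC raised SQSTM1, MAP1LC3B, ULK1 and GABARAPL1 and lowered ATG9A and TFEB, with 3 not called. Over all genes 45.9% were called (21.4% higher and 24.4% lower). The median log2 fold change of the 9 was -0.10, against -0.02 over all genes. DHA in sh-LUC raised SQSTM1 and lowered NBR1 and WIPI1, with 6 not called, against 16.8% of all genes (7.14% higher and 9.63% lower), and medians of -0.03 and 0.01. Erastin in sh-IGFBP6 raised 7, with ATG9A and TFEB not called, against 29% of all genes (14.7% higher and 14.3% lower), and medians of 0.33 and 0.00. Without replicate 1 of that group 4 of the genes were called and without replicate 3 6 were. DHA in sh-IGFBP6 raised SQSTM1, GABARAPL1, MAP1LC3B, ULK1 and WIPI1, with 4 not called, against 34.2% of all genes (17.4% higher and 16.8% lower), and medians of 0.43 and 0.00.

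Between the untreated lines, SQSTM1 was higher and 4 of the genes were lower in sh-IGFBP6, with 4 not called, where 64.6% of all genes were called (32.5% higher and 32.1% lower). SQSTM1 was at 239.7 to 255 CPM in sh-IGFBP6 and 137 to 143 CPM in sh-LUC (log2 0.81 ± 0.06, 1.75-fold, adjusted p = 3.3e-22). GABARAPL1 was at 10 to 14.4 against 34.4 to 39.4 CPM (-1.49 ± 0.14, adjusted p = 6.7e-18), and MAP1LC3B at 53.1 to 60.4 against 79.9 to 89.1 CPM (-0.54 ± 0.09, 1.8e-08). None of the 3 genes overlapped between the lines. TFEB, at 2.49 to 4.19 against 5.08 to 8.58 CPM, was at 0.499-fold of sh-LUC (log2 interval -1.57 to -0.44, adjusted p = 0.00127) and did not overlap either. How many of all genes were free of overlap between the untreated lines was not counted. NBR1 was called at -0.17 ± 0.07 (adjusted p = 0.0217) with overlapping libraries. It lost that call without sh-LUC control replicate 2 (-0.17) or 3 (-0.12), sh-IGFBP6 control replicate 3 (-0.10) or, though in neither group, sh-IGFBP6 erastin replicate 1 (-0.15). It was also not called without a filter (-0.16, adjusted p = 0.0998) or with library-size scaling (-0.06, 0.831). ULK1 (0.03 ± 0.09), GABARAPL2 (-0.03 ± 0.14), ATG9A (-0.11 ± 0.09) and WIPI1 (-0.12 ± 0.12) did not pass. The 9 had a median of -0.12, against 0.01 over all genes.

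Whether the lines answered differently was tested as the response in sh-IGFBP6 minus that in sh-LUC. For DHA, 6 of the 9 genes were called, all with the higher response in sh-IGFBP6, where 20.6% of all genes were called (10.4% higher and 10.2% lower). GABARAPL1 differed by a log2 of 2.50 ± 0.17 (adjusted p = 3.6e-26) and SQSTM1 by 1.59 ± 0.09 (2.8e-33). WIPI1 (0.76 ± 0.16, adjusted p = 6.7e-05), MAP1LC3B (0.75 ± 0.11, 3.3e-08), ULK1 (0.57 ± 0.12, 1.0e-04) and NBR1 (0.30 ± 0.09, 0.0101) followed. NBR1 lost its call without sh-LUC control replicate 3 (0.25) or sh-IGFBP6 control replicate 3 (0.23), by DESeq2 (0.29, adjusted p = 0.0527) and without a filter (0.21, 0.313). With library-size scaling SQSTM1 and GABARAPL1 were still called. NBR1 (0.16 ± 0.31, adjusted p = 0.86), MAP1LC3B (0.61 ± 0.26, 0.149), WIPI1 (0.63 ± 0.22, 0.0515) and ULK1 (0.44 ± 0.22, 0.243) were not, with larger SEs than under TMM. GABARAPL2 was at 0.47 ± 0.18 (adjusted p = 0.0584), with a 95% interval of 0.10 to 0.83, and passed without sh-LUC control replicate 2 (0.64) or sh-IGFBP6 DHA replicate 2 (0.61). ATG9A (-0.24, interval -0.48 to 0.01) and TFEB (-0.39, interval -1.19 to 0.41) did not pass. The median was 0.57, against -0.00 over all genes.

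For erastin, 4 of the 9 differed between the lines, against 26.2% of all genes (14.1% higher and 12% lower). GABARAPL1 differed by 2.01 ± 0.17 (adjusted p = 8.3e-20; 1.97 without the shallow library), WIPI1 by 0.54 ± 0.16 (0.00664; 0.52) and NBR1 by 0.38 ± 0.09 (7.4e-04; 0.38). With library-size scaling GABARAPL1 was still called, and WIPI1 (0.48, adjusted p = 0.162), NBR1 (0.14, 0.863) and SQSTM1 (-0.51, 0.408) were not. SQSTM1 went the other way, at -0.23 ± 0.09 (adjusted p = 0.0351; -0.29 without the shallow library), so its rise with erastin was the smaller in sh-IGFBP6. The call ended without any 1 of sh-LUC control replicates 1, 2 or 3, sh-LUC erastin replicate 1 or sh-IGFBP6 erastin replicate 1, with values of -0.19 to -0.25, and by DESeq2 (-0.25, adjusted p = 0.0703). WIPI1 lost its call without sh-LUC control replicate 2 (0.41), sh-IGFBP6 control replicate 3 (0.42) or sh-IGFBP6 erastin replicate 1 (0.48). MAP1LC3B was at 0.05 ± 0.11 (adjusted p = 0.838), with a 95% interval of -0.17 to 0.26, and at 0.01 without the shallow library. GABARAPL2 (0.43, interval 0.07 to 0.80) passed without sh-LUC control replicate 2 (0.61) or sh-IGFBP6 erastin replicate 2 (0.53). ULK1 (-0.19, interval -0.43 to 0.05), ATG9A (0.12, interval -0.13 to 0.38) and TFEB (0.74, interval -0.05 to 1.52) did not pass. Without the shallow library GABARAPL2 was at 0.39, ULK1 at -0.19, ATG9A at 0.10 and TFEB at 0.72, and none passed. The median of the 9 was 0.38, against 0.02 over all genes. Both line differences rest on the same control libraries as the comparison of untreated lines, so the low GABARAPL1 in sh-IGFBP6 control enters each of them.

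**Figure D4:**
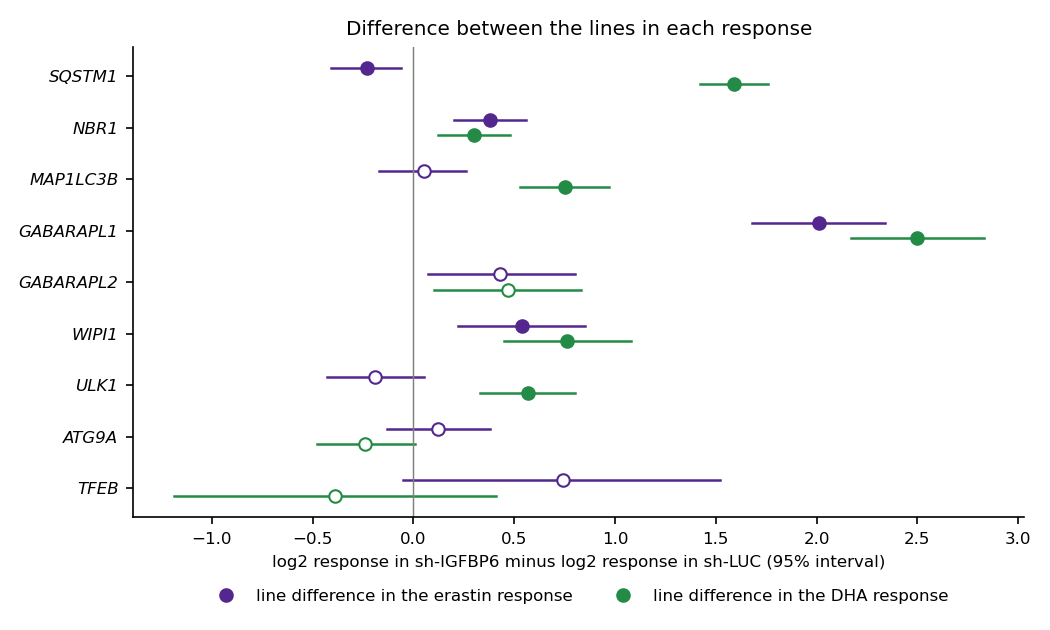
Response in sh-IGFBP6 minus response in sh-LUC (x axis, log2, with 95% interval) of the 9 tested genes (y axis) for erastin and for DHA, each over 12 libraries. Filled points were called: GABARAPL1 lies at 2.01 and 2.50, and SQSTM1 at -0.23 for erastin and 1.59 for DHA.

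DHA and erastin were also compared directly, at their single doses of 200 µM and 2.5 µM, which are not matched. In sh-LUC 5 of the 9 genes were lower with DHA than with erastin and 2 were higher, where 50.2% of all genes were called (26% higher and 24.2% lower). MAP1LC3B (-1.08 ± 0.06, adjusted p = 1.4e-31), SQSTM1 (-0.91 ± 0.06, 1.0e-29), GABARAPL1 (-0.56 ± 0.09, 3.4e-08), ULK1 (-0.35 ± 0.07, 1.4e-05) and NBR1 (-0.25 ± 0.06, 2.0e-04) were the lower ones. ATG9A (0.47 ± 0.07, adjusted p = 3.8e-08) and TFEB (0.57 ± 0.20, 0.0132) were the higher ones. The TFEB call was lost without sh-LUC DHA replicate 1 (0.51) or 2 (0.45) or sh-LUC erastin replicate 3 (0.49), and by DESeq2 (0.56, adjusted p = 0.116). With library-size scaling the calls of NBR1 (-0.09, adjusted p = 0.778) and ULK1 (-0.19, 0.312) were lost. GABARAPL2 (-0.23 ± 0.11) and WIPI1 (-0.19 ± 0.10) did not pass, and WIPI1 passed without sh-LUC DHA replicate 2 (-0.29) or erastin replicate 2 (-0.26). The median was -0.25, against 0.01 over all genes. In sh-IGFBP6, where 25.9% of all genes were called (13.1% higher and 12.8% lower), SQSTM1 (0.92 ± 0.06, adjusted p = 5.8e-28; 0.93 without replicate 3) and ULK1 (0.40 ± 0.08, 4.8e-05; 0.36) were higher with DHA. MAP1LC3B (-0.37 ± 0.08, adjusted p = 4.5e-05; -0.38) and NBR1 (-0.33 ± 0.07, 4.9e-05; -0.37) were lower, but with library-size scaling they were at -0.21 (adjusted p = 0.495) and -0.07 (0.878). GABARAPL1 was at -0.07 ± 0.09 (adjusted p = 0.615), with an interval of -0.25 to 0.11, and GABARAPL2, WIPI1, ATG9A and TFEB did not pass either. Without replicate 3 these 5 were at -0.57 to 0.10, and none passed. The median was -0.07, against -0.00 over all genes.

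Over the 18 libraries, the genes whose log2 CPM followed SQSTM1 most closely among 11507 genes were KCTD13 (Pearson r = 0.972), ZNF697 (0.965) and UNKL (0.960). For MAP1LC3B they were MAP1B (0.966), ADM (0.965) and ZFP36 (0.965), and for GABARAPL1 YPEL2 (0.950), ETV3 (0.945) and ACBD3 (0.922). For ULK1 they were ENSG00000273599 (0.958), NFKB2 (0.918) and MRNIP (0.903), the antisense neighbour of SQSTM1. Without the shallow library these r values were 0.917 to 0.973. Between SQSTM1 and ULK1 r was 0.68 over 18 libraries and 0.91 over the 17 others, so 1 library sets that value. SQSTM1 and MAP1LC3B had r = 0.46, SQSTM1 and GABARAPL1 0.66, MAP1LC3B and GABARAPL1 0.72, and SQSTM1 and NBR1 -0.08. Without the shallow library these were 0.43, 0.64, 0.70 and -0.05. These values describe 6 groups of libraries that share lines and treatments.

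Other genes of the pathway were taken from 6 general lists of autophagy and lysosome genes, chosen with earlier results of these data known. Among the initiation and phagophore genes, erastin raised 8 and lowered 1 of 19 tested in sh-LUC (42.1% and 5.26%, against 21.4% and 24.4% of all genes). It raised 6 in sh-IGFBP6, with 13 not called (31.6% higher, against 14.7%), and the same numbers without the shallow library. DHA raised 1 and lowered 1 in sh-LUC (5.26% each, against 7.14% and 9.63%) and raised 10 in sh-IGFBP6, with 9 not called (52.6% higher, against 17.4%). RB1CC1 (FIP200, the scaffold of the ULK1 complex) rose with erastin by 0.71 ± 0.08 in sh-LUC (adjusted p = 2.1e-13) and 0.64 ± 0.08 in sh-IGFBP6 (3.2e-11; 0.61 without replicate 3), and with DHA in sh-IGFBP6 by 0.43 ± 0.08 (1.6e-06). VMP1, a membrane scramblase, averaged 195 CPM in sh-IGFBP6 control, 493 CPM with DHA (1.34 ± 0.06, adjusted p = 4.1e-35) and 358 CPM with erastin (360.3 CPM without replicate 3), and 305 CPM in sh-LUC control, 350.4 CPM with DHA and 255 CPM with erastin. Its response was higher in sh-IGFBP6 by 1.14 ± 0.09 for each agent (adjusted p = 2.1e-20 for DHA and 1.5e-19 for erastin, the latter 1.13 without the shallow library). BECN1, of the phosphatidylinositol 3-kinase complex, was not called for either agent, at -0.08 to 0.04. ATG13 rose by 0.25 ± 0.07 with DHA in sh-IGFBP6 (adjusted p = 0.003) and ATG2A by 0.40 ± 0.07 (2.1e-07). With library-size scaling RB1CC1 in sh-IGFBP6 (0.41 with erastin, adjusted p = 0.088, and 0.36 with DHA, 0.144), ATG13 (0.17, 0.591), ATG2A (0.32, 0.329) and the VMP1 line difference for erastin (0.89, 0.0679) were not called. ULK2, the partner kinase of ULK1, totalled 89, 149 and 178 counts in the sh-LUC control, DHA and erastin groups and 2, 1 and 1 counts in the same groups of sh-IGFBP6.

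**Figure D5:**
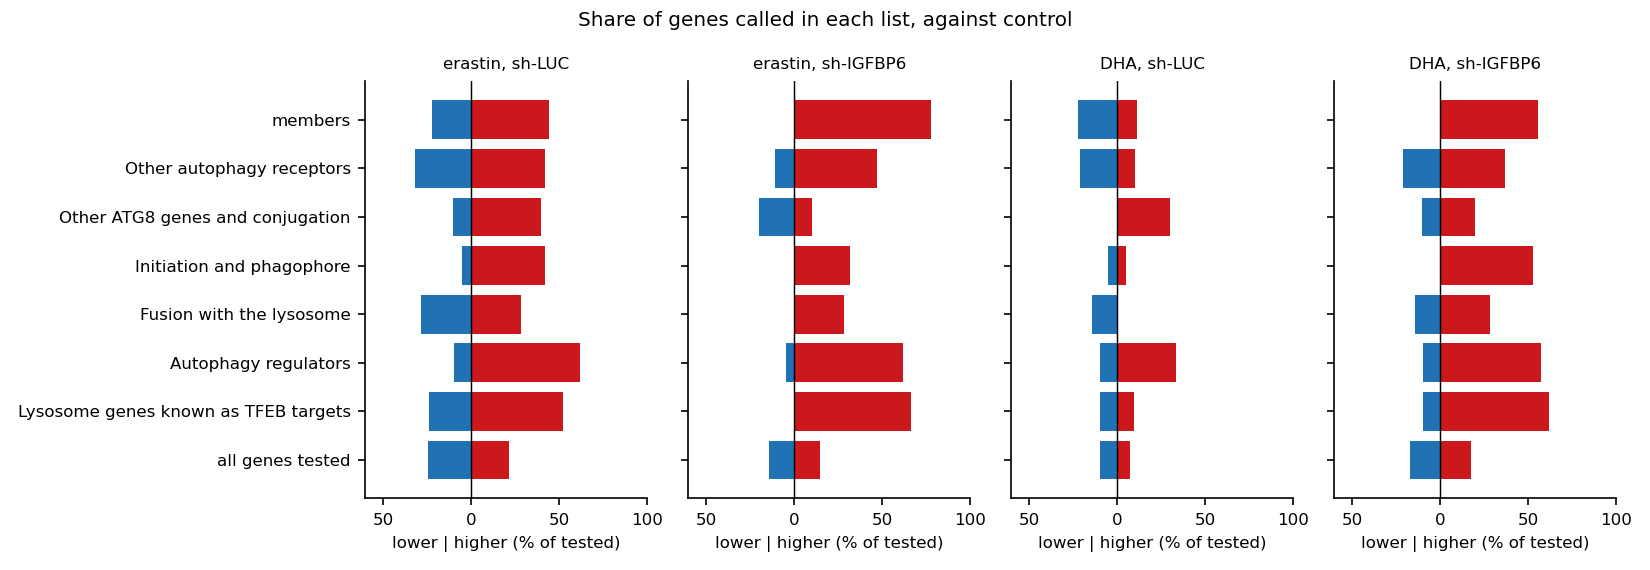
Share of tested genes called higher (right, red) and lower (left, blue) than control (x axis, percent of tested) in the 10 genes of the set (members), 6 further lists and all genes tested (y axis), for each agent and line. Over all genes 14.7% were called higher with erastin and 17.4% with DHA in sh-IGFBP6, and the counts behind each list's bars are in the text.

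Of 19 other receptors tested, erastin raised 8 and lowered 6 in sh-LUC (42.1% and 31.6%, against 21.4% and 24.4% of all genes). It raised 9 and lowered 2 in sh-IGFBP6 (47.4% and 10.5%, against 14.7% and 14.3%), or 10 and 2 without the shallow library. DHA raised 2 and lowered 4 in sh-LUC (10.5% and 21.1%, against 7.14% and 9.63%) and raised 7 and lowered 4 in sh-IGFBP6 (36.8% and 21.1%, against 17.4% and 16.8%). BNIP3, a mitophagy receptor, was called higher in all 4 (0.49 ± 0.08 and 0.30 ± 0.09 with erastin, 0.68 ± 0.08 and 0.56 ± 0.08 with DHA, in sh-LUC and sh-IGFBP6; adjusted p = 1.1e-06, 0.00386, 4.6e-10 and 1.3e-08). The erastin call in sh-IGFBP6 was at 0.34 without replicate 3, and was lost without erastin replicate 2 (0.19, 0.164), by DESeq2 (0.25, 0.112) and with library-size scaling (0.00, 0.996). That scaling also ended the calls for erastin in sh-LUC (0.38, 0.119) and DHA in sh-IGFBP6 (0.48, 0.0589). BNIP3L rose with erastin in both lines, by 0.46 ± 0.09 and 0.72 ± 0.11 (adjusted p = 2.6e-05 and 2.6e-07; the latter 0.73 without replicate 3). TAX1BP1 rose with erastin by 0.31 ± 0.06 and 0.55 ± 0.07 (adjusted p = 1.5e-05 and 3.1e-12; the latter 0.56 without replicate 3), and CALCOCO2 by 0.42 ± 0.08 and 0.32 ± 0.09 (4.5e-06 and 0.0018; the latter was 0.34 without replicate 3, and 0.26, 0.0501, without replicate 2). With library-size scaling, calls were lost for BNIP3L in sh-LUC (0.36, adjusted p = 0.0549), TAX1BP1 in both lines (0.20, 0.521, and 0.21, 0.537) and CALCOCO2 in both (0.32, 0.125, and 0.10, 0.741). OPTN, a receptor in mitophagy and the clearance of bacteria, was lower in untreated sh-IGFBP6 (21.5 CPM against 102 CPM, -2.26 ± 0.10, adjusted p = 1.8e-43). It fell with DHA in sh-LUC (-0.56 ± 0.07, adjusted p = 5.8e-10) and rose with it in sh-IGFBP6 (0.47 ± 0.12, 7.4e-04; 0.38, 0.152, with library-size scaling). NCOA4, the receptor of ferritin and therefore linked to iron release, fell in sh-LUC with erastin (-0.26 ± 0.06, adjusted p = 1.5e-04) and with DHA (-0.34 ± 0.06, 4.0e-06). Without sh-LUC control replicate 3 the former was -0.17 (adjusted p = 0.0388). In sh-IGFBP6 NCOA4 was at 0.15 ± 0.07 (0.0826; 0.17 and 0.0421 without replicate 3) and -0.13 ± 0.06 (0.108), and the line difference for erastin was 0.41 ± 0.09 (1.6e-04), and 0.41 without the shallow library. With library-size scaling the 3 NCOA4 calls were lost, at -0.37 (adjusted p = 0.215), -0.28 (0.617) and 0.16 (0.839).

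Of 10 ATG8 and conjugation genes tested, erastin raised 4 and lowered 1 in sh-LUC (40% and 10%, against 21.4% and 24.4% of all genes). It raised 1 and lowered 2 in sh-IGFBP6 (10% and 20%, against 14.7% and 14.3%), with the same numbers without the shallow library. DHA raised 3 in sh-LUC, with 7 not called (30% higher, against 7.14%), and raised 2 and lowered 1 in sh-IGFBP6 (20% and 10%, against 17.4% and 16.8%). ATG7, the activating enzyme for ATG8 lipidation, rose with erastin in sh-LUC (0.72 ± 0.11, adjusted p = 6.9e-09) and was at -0.20 ± 0.12 (0.205; -0.17 without replicate 3, and -0.35, 0.0494, without replicate 2) in sh-IGFBP6. The difference was -0.92 ± 0.16 (adjusted p = 1.5e-06), also -0.92 without the shallow library. ATG5 was not called for either agent, at -0.09 to 0.19. Of 14 fusion genes, erastin raised 4 and lowered 4 in sh-LUC (28.6% each, against 21.4% and 24.4%) and raised 4 in sh-IGFBP6, with 10 not called (28.6% higher, against 14.7%), or 5 without the shallow library. DHA lowered 2 in sh-LUC, with 12 not called (14.3% lower, against 9.63%), and raised 4 and lowered 2 in sh-IGFBP6 (28.6% and 14.3%, against 17.4% and 16.8%). PLEKHM1, an adaptor that binds ATG8 and RAB7A, rose by 0.85 ± 0.09 with DHA in sh-IGFBP6 (adjusted p = 3.8e-15). It also rose with erastin in sh-IGFBP6 (0.74, adjusted p = 3.8e-11, and 0.76 without replicate 3). In sh-LUC it rose with erastin by 0.43 (adjusted p = 1.9e-05), a call lost with library-size scaling (0.33, 0.0872).

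Of 21 lysosome genes known as targets of TFEB, erastin raised 11 and lowered 5 in sh-LUC (52.4% and 23.8%, against 21.4% and 24.4% of all genes). It raised 14 in sh-IGFBP6, with 7 not called (66.7% higher, against 14.7%), or 13 without the shallow library. DHA raised 2 and lowered 2 in sh-LUC (9.52% each, against 7.14% and 9.63%) and raised 13 and lowered 2 in sh-IGFBP6 (61.9% and 9.52%, against 17.4% and 16.8%). Their median log2 fold changes were 0.17 and 0.27 with erastin in sh-LUC and sh-IGFBP6 and -0.04 and 0.23 with DHA, against -0.02, 0.00, 0.01 and 0.00 over all genes. PSAP, the precursor of the saposins, rose by 0.86 ± 0.06 (adjusted p = 1.8e-28) and CTSD, an aspartic protease, by 0.97 ± 0.08 (1.1e-19) with DHA in sh-IGFBP6. With erastin there they rose by 0.73 (adjusted p = 9.9e-22) and 0.86 (3.3e-15), or 0.74 and 0.83 without replicate 3. In sh-LUC PSAP rose with erastin (0.42, adjusted p = 6.1e-11) and CTSD fell with DHA (-0.30, 2.4e-06). With library-size scaling these 2 calls in sh-LUC were lost (0.31, adjusted p = 0.351, and -0.25, 0.702). Before treatment, 13 of the 21 genes were lower and 4 higher in sh-IGFBP6 than in sh-LUC (61.9% and 19%, against 32.1% and 32.5% of all genes). Their median there was -0.50, against 0.01 over all genes. CTSD was lower before treatment in sh-IGFBP6 by -4.61 ± 0.07 (adjusted p = 3.7e-91). Of the TFEB relatives, TFE3 rose with erastin in both lines (0.28 ± 0.07 and 0.42 ± 0.08, adjusted p = 6.1e-04 and 1.1e-05; the latter 0.44 without replicate 3) and with DHA in sh-IGFBP6 (0.49 ± 0.08, 3.5e-08). With library-size scaling these 3 TFE3 calls were lost, at 0.17 (adjusted p = 0.51), 0.15 (0.623) and 0.40 (0.104). MITF fell with DHA, by -0.41 ± 0.09 in sh-LUC (adjusted p = 1.1e-04; -0.36, 0.207, with library-size scaling) and -1.01 ± 0.08 in sh-IGFBP6 (1.8e-20). Of 21 regulators, erastin raised 13 and lowered 2 in sh-LUC (61.9% and 9.52%, against 21.4% and 24.4%). It raised 13 and lowered 1 in sh-IGFBP6 (61.9% and 4.76%, against 14.7% and 14.3%), with the same numbers without the shallow library. DHA raised 7 and lowered 2 in sh-LUC (33.3% and 9.52%, against 7.14% and 9.63%) and raised 12 and lowered 2 in sh-IGFBP6 (57.1% and 9.52%, against 17.4% and 16.8%). FLCN and FNIP1, partners that act on the Rag GTPases at the lysosome, rose with DHA in sh-IGFBP6 by 1.01 ± 0.09 (adjusted p = 3.4e-17) and 0.93 ± 0.08 (4.2e-18). With erastin there they rose by 0.48 (adjusted p = 9.2e-05) and 1.16 (6.2e-23), or 0.51 and 1.15 without replicate 3. With DHA in sh-LUC they were called at 0.38 (adjusted p = 2.4e-04) and 0.29 (0.00905). These 2 calls were lost by DESeq2 (0.147 and 0.0672) and with library-size scaling (0.113 and 0.374). The erastin response of FLCN was lower in sh-IGFBP6 than in sh-LUC (-0.57, adjusted p = 4.0e-04).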

How the data were processed

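Gene counts came from 18 RNA samples of MDA-MB-231 cells. Per the labels' protocols, wells of 800000 cells were grown for 24 h and treated for 24 h, and rRNA-depleted libraries were made with MGIEasy kits. Per the submitters' processing notes the authors used cutadapt 4.4, STAR 2.7.7a, featureCounts and GRCh38. Annotation release, strand setting and counter version remain not given in the sources used here. The authors deposited unnormalised counts, per the labels, for 60709 genes. A gene with blank counts and 2 lines naming no gene (at most 0.0108% of a library) were left out.

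The 15189 genes passing filterByExpr (minimum count 10, minimum total 15) were tested in edgeR 4.0.16 (R 4.3.3) with TMM factors. The model held 1 coefficient for each of the 6 groups over all libraries, with quasi-likelihood F tests. The design left 12 residual degrees of freedom, and the tests and intervals also used prior degrees of freedom estimated over genes. The biological coefficient of variation was 6.29%. Standard errors were derived from F, or by Wald's form for F under 1. The code was tested on simulated data. Alternatives were DESeq2 1.42.0, library-size scaling, no filter, the libraries compared alone, a replicate block, omission of MT-RNR1 and MT-RNR2, and omission of each library. The naming rule covers the 10 genes, fixed genes of the 6 lists, and up to 2 genes per list, comparison and direction with the smallest p; the text takes a subset. Genes and lists were chosen with earlier results of these data known. Positions are from GENCODE 29 and promoters from RefSeq.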

Additional observations from a re-analysis of the deposited data

Results flagged for a closer look

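Responses that differed between the lines, by the test of the difference itself (response in sh-IGFBP6 minus response in sh-LUC, log2), were flagged. For DHA these were SQSTM1 (1.59), NBR1 (0.30), MAP1LC3B (0.75), GABARAPL1 (2.50), WIPI1 (0.76) and ULK1 (0.57). For erastin they were SQSTM1 (-0.23), NBR1 (0.38), GABARAPL1 (2.01) and WIPI1 (0.54). With library-size scaling only GABARAPL1, for both agents, and SQSTM1, for DHA, were still called. SQSTM1 is the gene of the set with called differences of opposite sign for the agents, but its erastin call was not stable. That call was also lost by DESeq2 (-0.25, adjusted p = 0.0703). It was lost as well without any 1 of sh-LUC control replicates 1, 2 or 3, sh-LUC erastin replicate 1 or sh-IGFBP6 erastin replicate 1. In the groups of 3 no test for a single outlying sample was made.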

How the results depend on the processing

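Over the 9 tested genes and 9 comparisons, 1871 of 1944 values under the alternatives kept their side of the threshold, 65 lost the call, 7 gained one and 1 reversed. A change of sign with no call in either fit was counted among the 1871. The 1944 include the 18 fits with 1 library left out, many of which dropped a library outside the groups compared. The reversal was NBR1 for erastin in sh-IGFBP6 under library-size scaling (-0.07); of the list genes, WIPI2 (-0.08) and ATG2A (-0.05) reversed there too. Under that scaling the set had 1 call for DHA in sh-LUC (3 with TMM), 3 for erastin in sh-IGFBP6 (7), 1 and 2 for the line differences in the erastin and DHA responses (4 and 6) and 2 for DHA against erastin in sh-IGFBP6 (4). Calls over all genes were 4591 and 759 for erastin and DHA in sh-LUC (6966 and 2546 with TMM), 2744 and 2587 in sh-IGFBP6 (4404 and 5202), 1337 and 1055 for the line differences (3974 and 3126) and 1552 for DHA against erastin in sh-IGFBP6 (3928). The TMM factor of sh-IGFBP6 erastin replicate 3 was 0.4329. SEs also grew under library-size scaling where that library was in neither group. For NBR1 with DHA in sh-LUC the value was -0.30 ± 0.22, a larger SE than with TMM. Library-size scaling moved the median log2 fold change of all genes to -0.12 and -0.18 for erastin in sh-LUC and sh-IGFBP6, -0.14 for the line difference in DHA and 0.17 for DHA against erastin in sh-LUC. The share of calls that were higher went from 46.7% to 31.8% for erastin in sh-LUC, from 50.5% to 23.3% for erastin and 50.8% to 33.3% for DHA in sh-IGFBP6, from 50.6% to 26.6% for the line difference in DHA, from 51.8% to 73.5% for DHA against erastin in sh-LUC and from 50.6% to 63.1% in sh-IGFBP6. Without a filter on low counts it went from 42.6% to 59.6% for DHA in sh-LUC and from 50.6% to 32.3% for the line difference in DHA. DESeq2 called 1565 genes for DHA in sh-LUC and 2422 for DHA against erastin in sh-IGFBP6. The cause of these shifts was not tested.

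With 1 library left out, calls in the set ranged from 5 to 6 and 2 to 3 for erastin and DHA in sh-LUC, 4 to 7 and 5 to 6 in sh-IGFBP6, 4 to 5 between the untreated lines, 2 to 5 and 5 to 8 for the line differences in the erastin and DHA responses, and 6 to 8 and 4 to 4 for DHA against erastin in sh-LUC and sh-IGFBP6. Leaving out sh-IGFBP6 erastin replicate 1 gave 4 calls for erastin in sh-IGFBP6 and 2 for the line difference in erastin. Calls over all genes ranged from 6092 to 7094, 1779 to 2601, 3277 to 4477, 4270 to 5303, 9285 to 10012, 3140 to 4052, 2641 to 3172, 6846 to 7749 and 2592 to 4028 in the same order, the 2592 again without that library. In 16 of the 18 fits GABARAP passed the filter on low counts, through its values in sh-IGFBP6 DHA replicates 1 and 2, so its calls there are no support. Over the 9 other genes the ranges were 5 to 5 for DHA in sh-IGFBP6 and 5 to 7 for the line difference in DHA, and as above for the rest.

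To look for pairing by replicate number, the deviations of log2 CPM from each group's mean were correlated between samples of different groups. Their median correlation was 0.00465 over 45 same-numbered pairs and 0.00124 over 90 differently numbered pairs. Only 1 pair, a same-numbered one, exceeded 0.1, at 0.106. These correlations are of deviations within groups of 3, not of the samples themselves. With the replicate number as a block, calls in the set were 6, 3, 7, 5, 5, 4, 6, 7 and 4 in that order, equal to those without it, and calls over all genes were 7025, 2643, 4394, 5304, 9841, 4102, 3221, 7708 and 3940. Depth limits GABARAP (0 to 16 counts per library) and TFEB (1 to 68) most, and every value of sh-IGFBP6 erastin replicate 3 (278278 counts outside MT-RNR1 and MT-RNR2).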
